A study of Mus musculus with 3 samples.

Results

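The genes described here copy DNA or supply its nucleotides. They are 41 mouse genes chosen by name, from the proteins that license and open replication origins to the enzymes that make deoxynucleotides. The rule itself uses names only, but the list was chosen with earlier results of these data known. A probe belonged to the set if its gene symbol on the array, or an older synonym, was in the list. All 41 genes were found, with 1 probe each among the 23473 probes of the array, 7 of them under an older symbol (such as Cdc45l for Cdc45, Ris2 for Cdt1 and Recc1 for Rfc1). All 41 probes had a value on every array and lay above the limit for dim probes, so no member was lost. The study asked about Delta-like 1, a Notch ligand, on stromal cells as a surface for mast cells. It measured RNA of 3 lines of OP9 cells on 1 one-colour array each. OP9 is a stromal line that serves as a feeder layer for blood cells. It came from newborn calvaria, and the mouse was B6C3Fe-a/a-Csf1op/Csf1op, which lacks functional macrophage colony-stimulating factor. The first line was OP9 without a transgene. The second, OP9-GFP, expressed green fluorescent protein, and the third, OP9-DL, expressed GFP and Delta-like 1. All 3 lines thus share the Csf1op alleles. They were kept in the same medium, alpha-MEM with 20% serum, and the labels state no treatment. The labels do not say which promoter drives the transgenes or whether a line is 1 clone or a pool.

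Before a cell copies its DNA, the origin recognition complex with Cdc6 and Cdt1 loads the ring-shaped MCM complex at origins. Cdc45 and GINS then turn MCM into the moving helicase, primase and polymerases build new strands on a sliding clamp of PCNA, and flap endonuclease and ligase join the short pieces of the lagging strand. Ribonucleotide reductase, thymidylate synthase, thymidine kinase and dUTPase set the supply of deoxynucleotides. Many of these genes are transcribed late in G1 and in S phase, when E2F factors are released from the retinoblastoma protein, so in a mixed culture their RNA is widely used as a marker of cells in cycle.

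E2F factors bind short GC-rich words next to a run of T, and the promoters of the members were searched for them because many of these genes are known E2F targets. Of the 41 members, 33 have an entry in the RefSeq promoter table of the build GRCm38.p6, whose windows hold 250 bases before and 50 after each start. Ccne2, Gins1, Gins2, Gmnn, Mcm4, Pole, Prim2 and Rfc2 have none. The words searched were TTCGCGC together with TTGGCGC and the variants TTCCCGC as well as TTGCCGC on both strands, and they can overlap each other, since the second word read on one strand and the first on the other can share bases in a run of 10. At least 1 word lay in a promoter of 21 of the 33 genes, 63.6%. The share was 10.9% of all 27025 genes of the table and 18.2% of the 9160 table genes compared on the arrays. The promoters below are shown for a helicase subunit with a pair of overlapping words, a primase, a single-strand binding protein, both subunits of ribonucleotide reductase, and thymidylate synthase, which has none. Each is printed 5′ to 3′ on the strand of its gene, up to the base before the annotated gene, in intergenic sequence of that table, with the words, on either strand, in capitals. The Tyms stretch is shorter, 230 bases, because the rest of its window lies within the annotated gene, and its whole window was searched.
Mcm6, chr1:128359706-128359955, minus strand: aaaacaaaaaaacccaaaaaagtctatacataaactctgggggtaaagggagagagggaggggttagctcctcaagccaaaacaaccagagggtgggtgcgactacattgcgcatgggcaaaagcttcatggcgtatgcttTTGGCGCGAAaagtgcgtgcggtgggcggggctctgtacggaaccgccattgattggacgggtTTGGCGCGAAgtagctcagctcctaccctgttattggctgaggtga
Prim1, chr10:128014965-128015214, plus strand: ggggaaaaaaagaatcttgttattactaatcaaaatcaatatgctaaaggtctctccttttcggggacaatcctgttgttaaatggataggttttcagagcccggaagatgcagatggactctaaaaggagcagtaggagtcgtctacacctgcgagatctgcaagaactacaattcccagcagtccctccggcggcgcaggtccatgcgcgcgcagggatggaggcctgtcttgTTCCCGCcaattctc
Rpa2, chr4:132768110-132768359, plus strand: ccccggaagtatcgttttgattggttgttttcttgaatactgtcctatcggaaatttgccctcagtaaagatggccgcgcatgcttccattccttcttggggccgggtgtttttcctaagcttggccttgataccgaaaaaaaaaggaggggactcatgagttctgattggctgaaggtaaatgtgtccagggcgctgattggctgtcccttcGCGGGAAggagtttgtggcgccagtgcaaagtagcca
Rrm1, chr7:102441445-102441694, plus strand: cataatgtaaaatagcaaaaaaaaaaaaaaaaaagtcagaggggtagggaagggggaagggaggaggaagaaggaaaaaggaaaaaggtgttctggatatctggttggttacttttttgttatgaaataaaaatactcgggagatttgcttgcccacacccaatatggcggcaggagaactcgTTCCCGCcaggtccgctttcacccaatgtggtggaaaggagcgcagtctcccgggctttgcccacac
Rrm2, chr12:24708004-24708253, plus strand: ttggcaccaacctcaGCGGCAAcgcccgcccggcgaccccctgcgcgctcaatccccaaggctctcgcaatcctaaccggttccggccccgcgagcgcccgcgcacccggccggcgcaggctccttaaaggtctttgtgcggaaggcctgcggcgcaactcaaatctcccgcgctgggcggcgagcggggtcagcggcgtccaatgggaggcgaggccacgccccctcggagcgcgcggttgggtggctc
Tyms, chr5:30073646-30073875, minus strand: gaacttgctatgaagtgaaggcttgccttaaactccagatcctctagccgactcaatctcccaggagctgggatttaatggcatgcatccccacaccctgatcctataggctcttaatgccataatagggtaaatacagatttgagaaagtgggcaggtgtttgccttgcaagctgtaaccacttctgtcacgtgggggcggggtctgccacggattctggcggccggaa

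In Mcm6 the words form the same run of 10 bases at 2 places, starting 109 and 46 bases before the start, and in Prim1, Rpa2, Rrm1 and Rrm2 a single word starts 15, 37, 67 and 235 bases before it. Restricted to the 250 bases before the start, the words were held by 15 of the 33 genes, 45.5%, against 15.1% of the table genes compared on the arrays. By role, the genes with a word numbered 3 of 4 for origin licensing, 4 of 6 for the helicase, 4 of 6 for primase and polymerases, 5 of 7 for the clamp and fragment joining, 2 of 5 for nucleotide supply, 3 of 3 for chromatin, and 0 of 2 for G1/S control. Of the 12 members with an entry that were at least 2-fold higher in OP9-GFP than in OP9, 6 held a word, and of the other 21 members 15 did. The CCAAT box, the site of the factor NF-Y, was present on either strand in 19 of the 33 genes, 57.6%, against 42.4% of those compared on the arrays, and in all 6 helicase members with an entry. A match is a description of letters and does not show that a factor is bound in these cells.

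The arrays had values for 21989 (OP9), 21941 (OP9-GFP) and 21920 (OP9-DL) probes, and the authors' scaling puts the median probe of each at an intensity of 20. Dll1, which encodes Delta-like 1, stood at 14.0, 20.5 and 333.3, highest in the line labelled as carrying it. Of 12 stromal markers 10 were measured above the limit, Thy1 read 1.1, 1.7 and 3.0, and Ly6a had no probe under that name. Of the 10, 4 were higher and 6 lower in OP9-GFP than in OP9. Vim stood at 18420, 25328 and 32110, Col1a1 at 269.3, 712.9 and 557.0, Fn1 at 17144, 10241 and 11282, Pdgfra at 800.6, 166.1 and 127.1, and Col3a1 at 660.5, 936.4 and 195.9. Of 4 preadipocyte markers above the limit, 3 were lower in OP9-GFP than in OP9, among them Pparg at 2444, 1242 and 2035. Markers of mast cells summed to 60.5, 42.0 and 856.0 over the 8 of 9 genes with a probe, blank cells left out, of which 3 passed the limit and Tpsab1 alone made 818.9 of the last sum. Kit had a value of 1.6 in OP9 and none on the others. Markers of other blood cells summed to 74.5, 85.9 and 199.9 over 8 of 10 genes, with 4 above the limit and Cd48 at 2.1, 3.0 and 114.4, and Ptprc, which defines leukocytes, at 2.1, 2.5 and 2.8. The part of these markers in the results below was not tested. With a single array per line there is no replicate check, and no test, error or p-value is given. What GFP or Delta-like 1 does cannot be told apart from other differences between the cultures.

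The members' intensities ran from 30.2 to 2907 with a median of 264.5 in OP9, from 65.4 to 6928 with a median of 482.7 in OP9-GFP, and from 70.6 to 5236 with a median of 365.3 in OP9-DL. The median member stood at percentile 84.8, 90.2 and 88.4 of the probes measured on all arrays, and none was near the brightest value of its array, which was 40270, 42112 and 42590. Of the 41 members, 32 (78.0%) were lowest in OP9 and 28 (68.3%) were highest in OP9-GFP. Among the 15581 compared probes these shares were 39.5% and 32.6%. The order OP9-GFP above OP9-DL above OP9 was found for 23 members, 56.1%, against 20.4% of compared probes. At least 2-fold between any pair of arrays lay 20 members, 48.8%, against 17.6%, and the other 21 stayed within 2-fold throughout. Highest in OP9-DL were 10 members (24.4%, against 30.6% of probes) and lowest there 8 (19.5%, against 30.7%). Highest in OP9 were Rfc1, Rfc2 and Tk1, 7.32% against 36.1%, and lowest in OP9-GFP was Lig1, 2.44% against 28.9%. None of the 41 was at least 2-fold above both others in OP9 (3.98% of probes) or in OP9-DL (0.969%), or below both in OP9-GFP (0.879%).

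**Figure D1:**
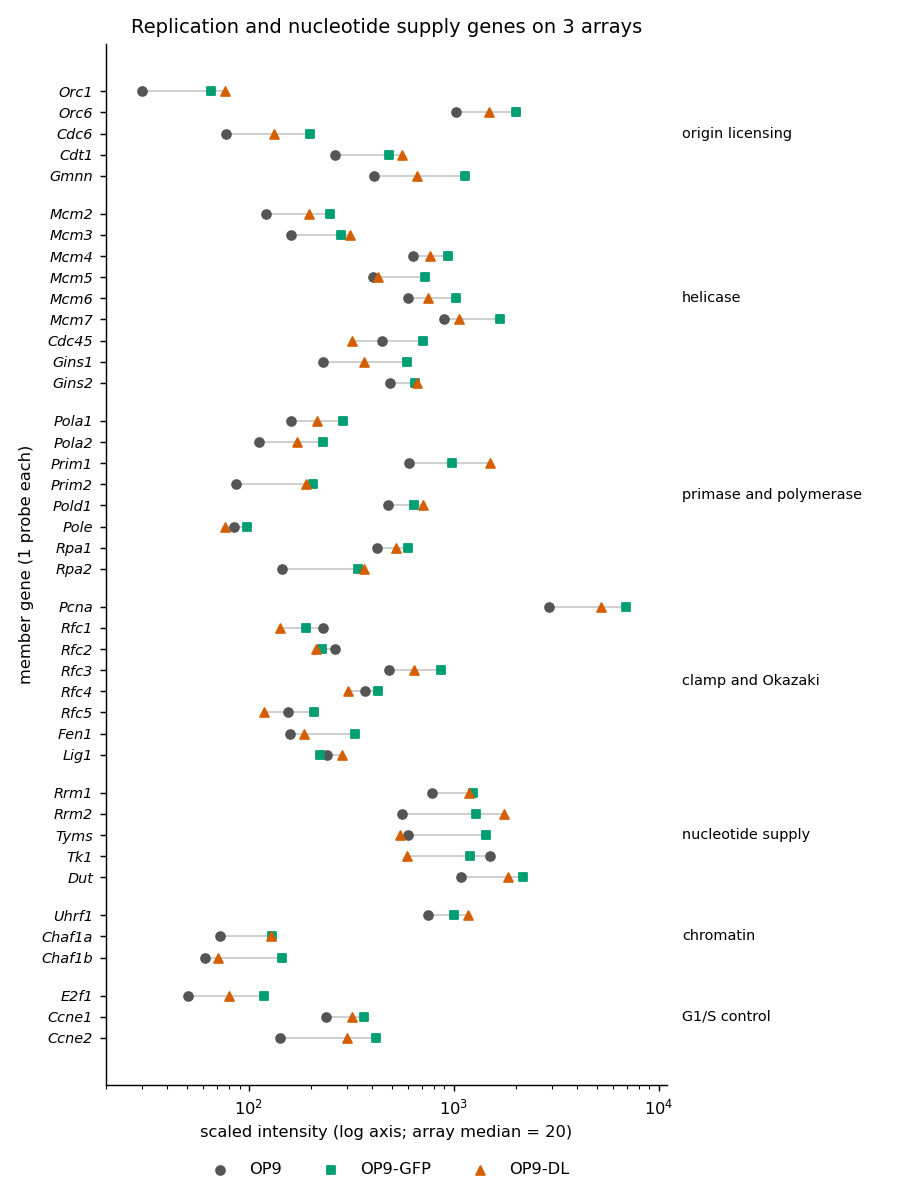
Scaled intensity of the 41 members (log axis, in units where the array median is 20) on the OP9 array (grey circles), the OP9-GFP array (green squares) and the OP9-DL array (orange triangles), 1 array each, grouped by role. The OP9 point is the lowest for 32 members and the OP9-GFP point the highest for 28.

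The comparison of OP9-GFP with OP9 sets cells with GFP against the parental cells. Replication genes were higher in OP9-GFP: 37 of 41 lay above OP9, where 51.7% of all compared probes did and 47.7% lay below. At least 2-fold higher were 16 members, 39.0%, against 4.86% of probes, and 0 were at least 2-fold lower, against 6.75% of probes. The median log2 difference of the members was 0.84, a 1.79-fold higher intensity, and that of all compared probes was 0.02. The members' quartiles were 0.51 and 1.20, and the range ran from -0.32 to 1.55. In RNA from whole cultures, more cells making a transcript and more of it per cell cannot be told apart, and likewise for fewer and less.

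**Figure D2:**
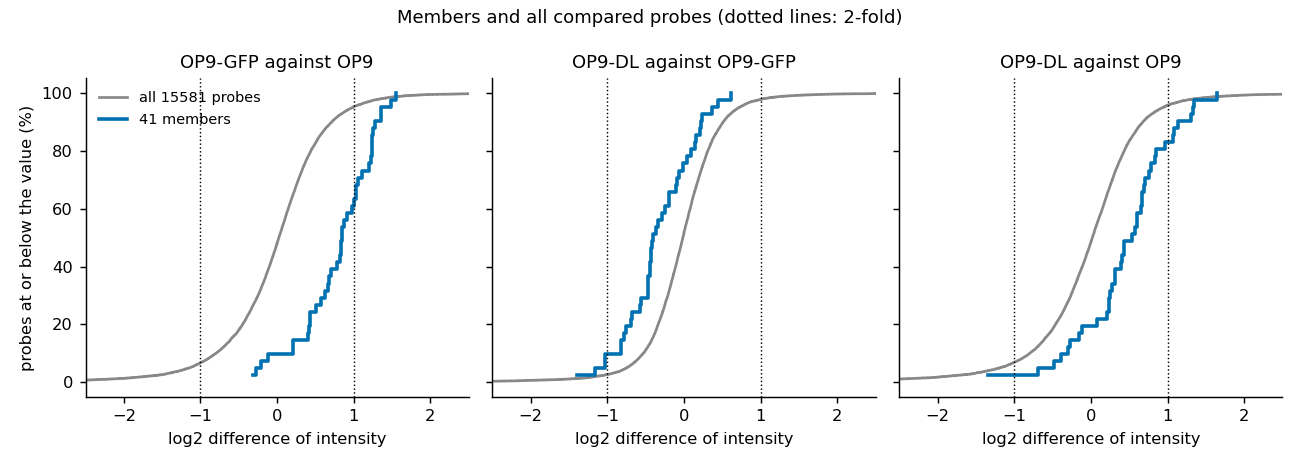
Cumulative share (percent) of the 41 members (blue) and of all 15581 compared probes (grey) at or below each log2 difference of intensity, in the 3 comparisons of the arrays; dotted lines mark 2-fold. The members' curve lies to the right of the grey one for OP9-GFP against OP9 (median 0.84 against 0.02) and to the left for OP9-DL against OP9-GFP (median -0.40 against -0.01).

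All 5 origin licensing genes were higher in OP9-GFP than in OP9, 3 of them by at least 2-fold, with a median log2 difference of 1.11. Gmnn, which encodes geminin, the inhibitor that keeps Cdt1 from licensing an origin again, had intensities of 405.6 in OP9, 1138 in OP9-GFP and 660.1 in OP9-DL. Cdc6, the ATPase that loads MCM together with Cdt1, had 76.9, 197.8 and 132.6. Orc1, the largest subunit of the origin recognition complex, had 30.2, 65.4 and 76.6. Geminin and Cdc6 were thus 2.81-fold and 2.57-fold higher with GFP than in the parental line and lay between the other arrays in OP9-DL, while Orc1 was highest in OP9-DL. Cdt1, the target of geminin, had 264.5, 482.7 and 558.2, so that its difference of 0.87 was below 2-fold with GFP alone and its difference of 1.08 in OP9-DL was above it. Orc6, a small subunit, was 1.98-fold higher, just under the threshold, with 1020, 2018 and 1479.

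All 9 helicase genes were also higher in OP9-GFP than in OP9, 2 by at least 2-fold, with a median of 0.82. The 6 subunits of the MCM ring lay close together, from 0.57 for Mcm4 to 1.04 for Mcm2 on the log2 scale. Mcm2 read 121.8 in OP9, 249.9 in OP9-GFP and 197.3 in OP9-DL. Mcm7 read 899.9, 1688 and 1058, and Mcm5 read 404.0, 722.4 and 427.5, both closer to the parental value in OP9-DL than in OP9-GFP. Gins1, a subunit of the GINS complex that holds Cdc45 on MCM, was 2.56-fold higher with GFP and read 231.2, 591.4 and 365.6. Its partner Gins2 was 1.32-fold higher and read 490.5, 647.6 and 663.9, the least of the helicase genes. Cdc45, which works with MCM and GINS, read 444.8, 709.7 and 318.6. It was the single one of these 9 members with its lowest value in OP9-DL. The other GINS subunits are outside the members. Gins3 read 31.6, 34.2 and 40.8, and Gins4 read 464.5, 341.3 and 313.3, highest in OP9 and lowest in OP9-DL.

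Of 8 genes for priming, strand synthesis and single-strand binding all were higher in OP9-GFP, 3 by at least 2-fold. DNA polymerase alpha and primase work as 1 complex of 4 subunits, and these differed by 0.70 (Prim1) to 1.24 (Prim2), with Pola1 at 0.84 and Pola2 at 1.03. Prim2, the large primase subunit, had 86.9, 204.7 and 190.3 in OP9, OP9-GFP and OP9-DL, and Pola2, which tethers the polymerase, had 112.5, 230.2 and 171.3. Prim1, the catalytic primase, had 602.8, 981.5 and 1495, highest in OP9-DL, where Pola1 and Pola2 were highest with GFP alone. The catalytic subunits of the main replicative polymerases differed less: Pold1 was 1.33-fold and Pole 1.16-fold higher. Rpa2, the middle subunit of the single-strand binding protein, had 145.4, 342.2 and 365.3, so both GFP-carrying lines stood more than 2-fold above the parent. Rpa1, its large subunit, was 1.42-fold higher with GFP. Rpa3, another subunit that is outside the members, read 689.2, 620.6 and 552.8, highest in OP9.

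The clamp and its loader differed from each other. Pcna, the sliding clamp, read 2907 in OP9, 6928 in OP9-GFP and 5236 in OP9-DL, and was 2.38-fold higher with GFP. None of the 5 subunits of replication factor C, which opens the clamp, reached 2-fold. Rfc3 was 1.79-fold and Rfc5 1.35-fold higher, while Rfc1, the large subunit, read 229.0, 189.3 and 141.3 and Rfc2 read 262.2, 226.8 and 212.3, both highest in the parental line. Fen1, the endonuclease that trims the flaps of lagging-strand pieces, was 2.08-fold higher and read 158.6, 330.3 and 186.4. Lig1, the ligase that seals them, read 240.4, 221.1 and 285.5 and was the only member with its lowest value in OP9-GFP.

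Of the 5 nucleotide supply genes, 3 were at least 2-fold higher in OP9-GFP and 1 was lower than in OP9. Tyms, thymidylate synthase, which makes dTMP from dUMP, had intensities of 594.4 in OP9, 1438 in OP9-GFP and 546.5 in OP9-DL. Tk1, the kinase that makes dTMP from salvaged thymidine, had 1498, 1200 and 589.2. These enzymes of a common product thus stood 1.59 apart on the log2 scale in this comparison, with Tyms 2.42-fold higher and Tk1 1.25-fold lower. Rrm2, the radical-carrying subunit of ribonucleotide reductase, had 559.0, 1286 and 1757, higher by a factor of 2.30 with GFP. Rrm1, the large subunit, had 780.6, 1238 and 1185 and was 1.59-fold higher. Dut, the dUTPase that keeps uracil out of DNA and provides dUMP, had 1085, 2174 and 1834. Its difference of 1.00 lies at the threshold, and it was below 2-fold under quantile and lowess scaling.

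Genes for chromatin behind the fork and for entry into S phase were higher as well, all 6 of them above 0. Chaf1b, the middle subunit of the histone chaperone CAF-1, read 61.0 in OP9, 144.5 in OP9-GFP and 70.6 in OP9-DL. Chaf1a, the large subunit, read 72.2, 129.7 and 128.5. Both were higher with GFP, by 2.37-fold and 1.80-fold, while in OP9-DL Chaf1a stood near its OP9-GFP value and Chaf1b near its OP9 value. Uhrf1, which brings the DNA methyltransferase to newly copied DNA, was 1.34-fold higher. Ccne2, cyclin E2, which activates Cdk2 at the entry into S phase, had the largest difference of all members in OP9-GFP against OP9, 2.93-fold, and read 142.3, 417.4 and 301.9. Ccne1, cyclin E1, was 1.54-fold higher. E2f1, a founding member of the E2F family, read 50.5, 118.1 and 80.0 and was 2.34-fold higher.

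**Figure D3:**
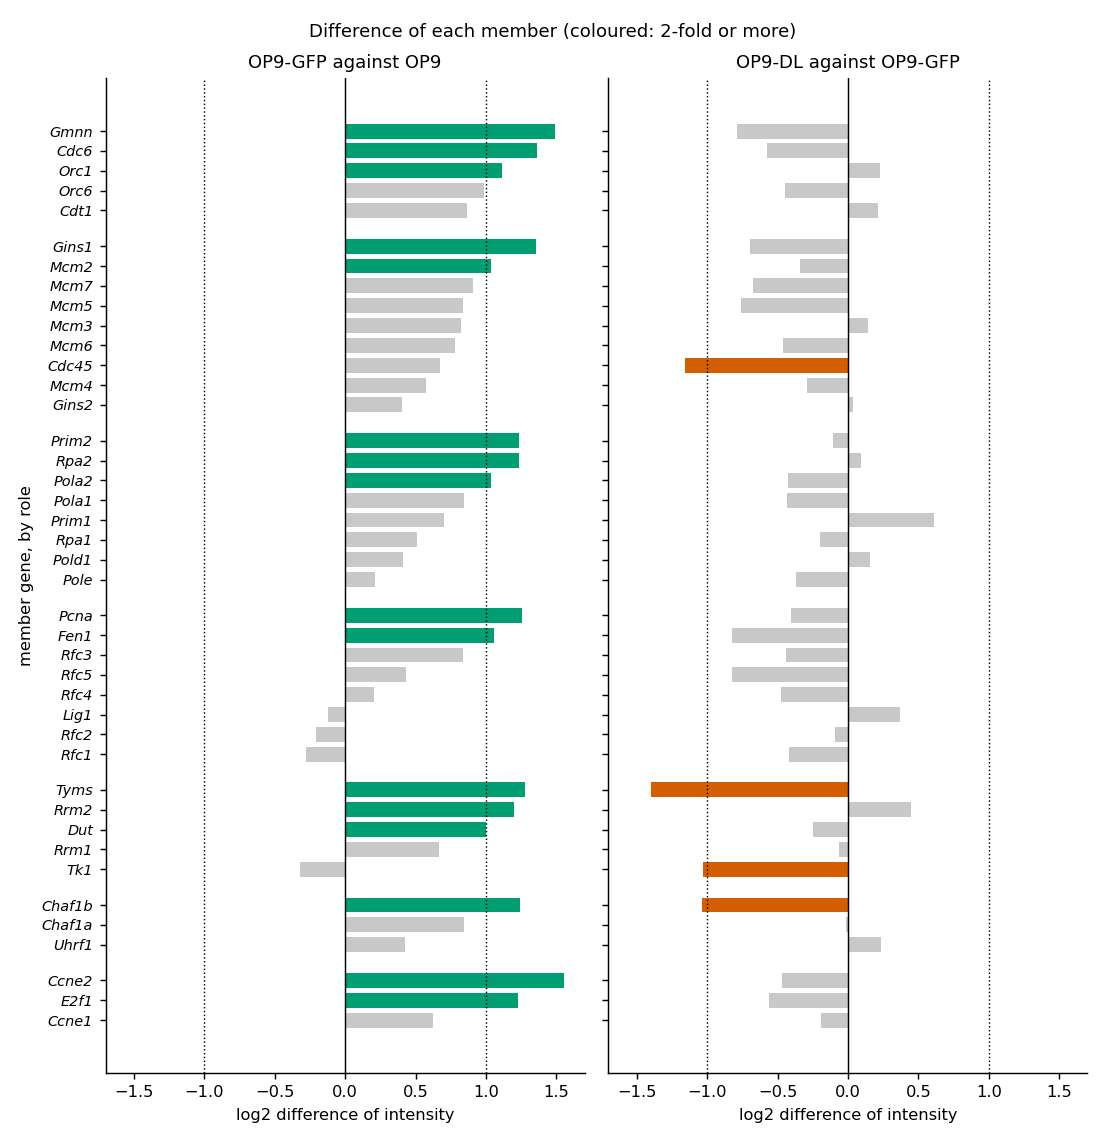
Log2 difference of intensity of each member for OP9-GFP against OP9 (left) and OP9-DL against OP9-GFP (right), grouped by role as in the text; coloured bars are 2-fold or more, dotted lines mark 2-fold, and each bar rests on 1 array per line. On the left 16 bars pass 2-fold, all to the right, and on the right 4 pass it, all to the left (Tyms, Cdc45, Chaf1b and Tk1).

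The comparison of OP9-DL with OP9-GFP is the pair that the labels separate by Delta-like 1. The members lay mostly below 0 here: 31 of 41 were lower in OP9-DL, against 51.3% of compared probes, and 10 were higher, against 48% of probes. Their median was -0.40, and that of all probes was -0.01. At least 2-fold lower were 4 members, 9.76%, against 2.73% of probes, and 0 were at least 2-fold higher, against 2.31%. This comparison and the previous one share the OP9-GFP array, so a high reading on it moves a gene up in one and down in the other, and the values of the 2 comparisons are no independent evidence of each other.

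The members at least 2-fold lower were Tyms (2.63-fold), Cdc45 (2.23-fold), Chaf1b (2.05-fold) and Tk1 (2.04-fold). They reached that point from different sides. Tyms and Chaf1b were at least 2-fold above both other arrays in OP9-GFP, 2 of 41 members, 4.88%, against 0.789% of compared probes, and in OP9-DL they stood 1.09-fold below and 1.16-fold above the parental value. Tk1 was at least 2-fold below both others in OP9-DL, 1 of 41, 2.44%, against 1.47% of probes. Cdc45 was 1.60-fold higher with GFP than in the parent and 1.40-fold lower than the parent with Delta-like 1. Chaf1b was inside 2-fold under quantile and lowess scaling, and Tk1 under quantile scaling.

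Below 2-fold, Fen1 (-0.83), Rfc5 (-0.82), Gmnn (-0.79), Mcm5 (-0.76), Gins1 (-0.69) and Mcm7 (-0.67) followed on the low side. All 5 subunits of replication factor C were below 0, from -0.82 to -0.10, and 5 of the 6 MCM subunits, with a median of -0.40 for the ring. All 3 genes of G1/S control lay between -0.56 (E2f1) and -0.19 (Ccne1). On the high side stood Prim1, 1.52-fold higher, Rrm2, 1.37-fold higher, and Lig1, 1.29-fold higher. Orc1, Cdt1, Uhrf1, Pold1, Mcm3, Rpa2 and Gins2 were the other members above 0, from 0.04 to 0.23.

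Subunits of the same complex did not always lie together in this comparison. Chaf1b stood 1.02 below Chaf1a on the log2 scale, although the proteins form 1 chaperone. Cdc45 stood 1.19 below Gins2, and Prim1 1.04 above Pola1. Geminin stood 1.00 below its target Cdt1. Other pairs lay closer: Rrm2 stood 0.51 above Rrm1, and Rfc3 and Rfc1 differed by -0.02. These gaps are between single probes on single arrays, and a gap alone does not say which member differed. By their own differences, Chaf1a (-0.01) and Gins2 (0.04) lay near 0, while Chaf1b (-1.03) and Cdc45 (-1.16) were lower. Prim1 (0.61) and Pola1 (-0.43) lay on opposite sides of 0.

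Against the parental line, most members were higher in OP9-DL. On the OP9-DL array 33 of 41 lay above OP9, against 51.3% of compared probes, and 8 below, against 48.3%, with a median of 0.54 (1.45-fold) against 0.02. At least 2-fold higher were 7, 17.1%, against 4.33% of probes: Rrm2 (3.14-fold), Orc1 (2.54-fold), Rpa2 (2.51-fold), Prim1 (2.48-fold), Prim2 (2.19-fold), Ccne2 (2.12-fold) and Cdt1 (2.11-fold). At least 2-fold lower was 1, Tk1 (2.54-fold), 2.44% of members against 6.92% of probes. Of the 7, Rrm2, Orc1, Rpa2, Prim2 and Ccne2 were at least 2-fold above the parental line on both transgenic arrays, 12.2% of members against 2.2% of probes. The lower members beside Tk1 were Rfc1 (-0.70), Cdc45 (-0.48), Rfc5 (-0.39), Rfc2 (-0.30), Rfc4 (-0.27), Pole (-0.16) and Tyms (-0.12), so 4 of the 5 clamp loader subunits were below the parental value.

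The other genes of the same pathways were read from lists beside the members. Of 43 other replication genes, 39 passed the limit. In OP9-GFP 7 were at least 2-fold above OP9 (17.9%, against 4.86% of probes) and 0 below (against 6.75%). Above 0 lay 31 (79.5%, against 51.7%), with a median of 0.47. Pole2, a subunit of polymerase epsilon, read 113.9 in OP9, 293.3 in OP9-GFP and 271.7 in OP9-DL, and Nasp, a histone chaperone, read 543.0, 1374 and 916.7. At the low end were Ticrr, which helps to fire origins (13.2, 7.0 and 11.9), and Orc3, a subunit of the origin recognition complex (23.8, 12.9 and 17.6), both dim. The rest of the 8 genes below 0 were brighter. They were Rnaseh2a (-0.47), Gins4 (-0.44), Chtf8 (-0.31), Pold4 (-0.27), Rpa3 (-0.15) and Rnaseh2c (-0.09). In OP9-DL against OP9-GFP 0 of the 39 passed 2-fold in either direction, against 2.31% of probes higher and 2.73% lower, with a median of -0.12. There Ticrr (0.77) and Timeless (0.55), a fork protection gene with 139.0, 185.3 and 271.0, were highest. Lowest were Pold2 (-0.93), a subunit of polymerase delta with 503.5, 770.9 and 405.6, and Slbp (-0.68), which binds histone messages, with 383.1, 922.8 and 577.6. In OP9-DL against OP9, 3 of the 39 were at least 2-fold higher (7.69%, against 4.33% of probes) and 0 lower (against 6.92%).

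The other nucleotide supply genes had a smaller median difference. Of 33 such genes, 1 was at least 2-fold higher in OP9-GFP than in OP9 (3.03%, against 4.86% of probes) and 2 were lower (6.06%, against 6.75%), shares near the background, with a median of 0.21. Ctps, CTP synthase, stood at 178.6, 453.7 and 371.1, with Umps, of pyrimidine synthesis, next at 0.92 (320.3, 605.3 and 506.0). Ctps2, a second CTP synthase, stood at 310.1, 151.1 and 166.8, and Dguok, a mitochondrial deoxynucleoside kinase, at 250.8, 118.8 and 120.2. Against OP9-GFP, OP9-DL had 0 higher (2.31% of probes) and 2 lower (6.06%, against 2.73%) with a median of -0.07: Cmpk1, a pyrimidine nucleotide kinase (211.4, 208.4 and 101.8), and Shmt1, a folate enzyme that works beside Tyms (41.8, 75.2 and 37.3), both close to the threshold. Under lowess scaling 0 were lower, and under quantile scaling or with a constant added 1 was. The largest differences of the list in OP9-DL against OP9-GFP were those of Prps2 (0.63) and Shmt2 (0.47). Prps2, which makes the ribose donor of nucleotides, read 78.5, 66.0 and 102.0. Shmt2, the mitochondrial relative of Shmt1, read 374.6, 614.9 and 850.7. In OP9-DL against OP9, 2 were at least 2-fold higher (6.06%, against 4.33% of probes) and 2 lower (6.06%, against 6.92%), again near the background.

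Regulators of the step from G1 to S differed in both directions. Of 28 that passed the limit, 6 were at least 2-fold higher in OP9-GFP than in OP9 (21.4%, against 4.86% of probes). Lower were 4 (14.3%, against 6.75%), and the median was 0.31. With the limit at the 50th percentile 5 were higher and 3 lower, where 5.29% and 7.25% of probes were. Cdkn1c and E2f7 (5.4, 12.1 and 14.0) passed the limit only through the arrays where they are high, so their calls are no support for the list. Mybl2, an E2F-regulated transcription factor, read 28.7, 102.0 and 66.1, and Fbxo5, an inhibitor of the anaphase-promoting complex, 294.4, 978.6 and 537.2. Both have the order of most members, with OP9-GFP highest and OP9 lowest. The 4 at least 2-fold lower were inhibitors of the cycle and 1 cyclin: Cdkn1c (41.8, 4.7 and 3.2), Cdkn2a (63.7, 9.8 and 38.8), Rb1, the retinoblastoma protein that holds E2F (1405, 279.3 and 992.9), and Ccnd2, cyclin D2 (3359, 1422 and 2032). Other inhibitors of the list stayed within 2-fold and lay on both sides. Cdkn1a (-0.58) and Cdkn2c (-0.34) were lower in OP9-GFP, and Cdkn1b (0.585), Rbl1 (0.46) and Rbl2 (0.28) were higher. In OP9-DL against OP9-GFP, Cdkn2a (1.99) and Rb1 (1.83) were the 2 genes past 2-fold, both higher (7.14%, against 2.31% of probes). Fbxo5 (-0.87) and Ccna2 (-0.78), cyclin A2 with 537.1, 1371 and 799.4, were lowest, and the median of the list was -0.06. In OP9-DL against OP9, 5 were at least 2-fold higher (17.9%, against 4.33% of probes) and 1 lower (3.57%, against 6.92%), with a median of 0.32.

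Mitosis genes, which mark the end of the cycle, lay on the same sides as the members in both comparisons with OP9-GFP. Of 33 above the limit, 32 lay above 0 in OP9-GFP against OP9 (97.0%, against 51.7% of probes), with a median of 0.55 beside 0.84 for the members. At least 2-fold higher were 4 (12.1%, against 4.86%), and 0 were as much lower (against 6.75%). Cdca8, of the chromosomal passenger complex (60.5, 152.5 and 133.2), and Ube2c, which works with the anaphase-promoting complex (970.2, 2269 and 1425), were highest, and Ccnb2, cyclin B2 (861.1, 582.9 and 348.6), and Nuf2, of the kinetochore (302.6, 313.7 and 297.2), lowest. In OP9-DL against OP9-GFP all 33 were below 0 (against 51.3% of probes) with a median of -0.49, beside 31 of 41 members with -0.40. Past 2-fold were 0, against 2.31% of probes higher and 2.73% lower. Nuf2 (-0.08) and Cdc20 (-0.11), with 913.2, 1302 and 1211, were nearest to 0. Kif20a (-0.95), a kinesin of cell division, read 552.3, 633.1 and 328.0, and Nek2 (-0.89), a centrosome kinase, read 242.5, 421.8 and 226.9, the farthest from 0. In OP9-DL against OP9 their median was -0.03, with a sign that turned under quantile scaling and other limits for dim probes, where the members' median was 0.54. The difference between the lists was not tested.

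**Figure D4:**
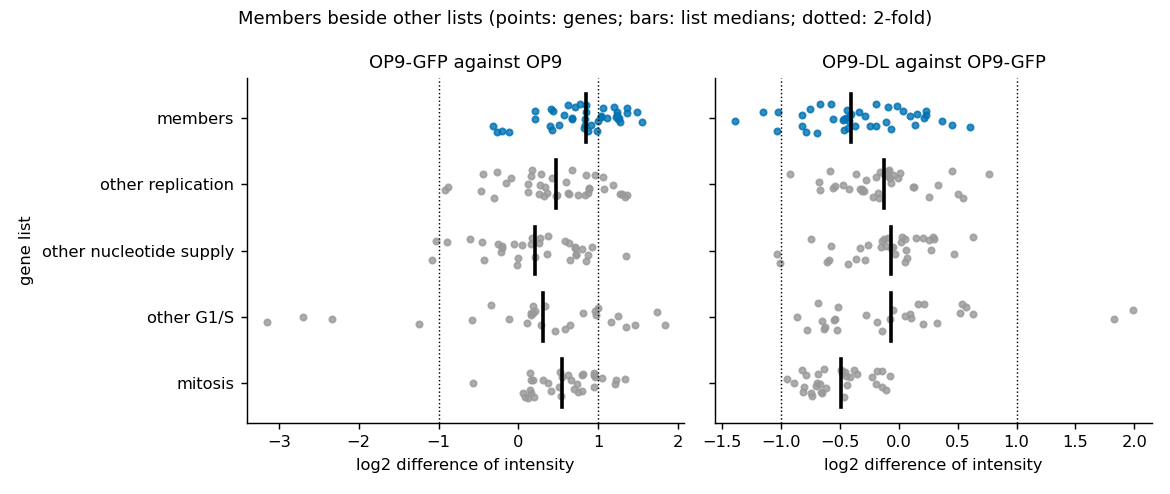
Log2 difference of intensity for OP9-GFP against OP9 (left) and OP9-DL against OP9-GFP (right) of each gene above the limit for dim probes (points) in the members and 4 other lists; black bars are list medians and dotted lines mark 2-fold. On the left the medians run from 0.21 (other nucleotide supply) to 0.84 (members), and on the right from -0.49 (mitosis) to -0.06 (other G1/S).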

How the data were processed

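Per the labels' protocols, RNA from a column kit was amplified with amino allyl nucleotides, labelled with Cy5 and put on Toray arrays. The deposited values are linear probe intensity, scaled by the authors so that every array's median is 20 (a reading of the values themselves). For background correction and blank cells the sources used here state no rule. Probes with values on all 3 arrays (20775) were compared where the mean log2 value reached the 25th percentile (2.62, an intensity of 6.13). That left 15581 probes. Log2 was taken with no constant, no further scaling was done, and 2-fold was the threshold. Symbols came from the platform's gene table (16631 probes with 1 symbol, 0 with several and 6842 with none, the latter unnamed), updated through a RefSeq gene table of GRCm38.p6. Genes with several probes took the mean log2. All members are named. Intensities on all arrays are given for members past 2-fold, for the 3 highest and 3 lowest of each comparison, and for the extremes of the other lists. The members and lists were chosen with earlier results of these data known. The printed promoters, the pairs of subunits set against each other, and Rb1, Ccnd2, E2f7 and the stromal and preadipocyte markers named were chosen after values were seen. Scripts ran in Python 3.11.15 with pandas 2.3.3, numpy 2.4.6 and, for lowess, statsmodels 0.14.6.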

Additional observations from a re-analysis of the deposited data

How the results depend on the processing

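The direction of the members' medians held in all 3 comparisons under quantile scaling, lowess scaling (span 0.3) and a constant of 2 before log2. Other settings were no limit or one at the 50th percentile for dim probes, and the brightest probe per gene. These could not change the members, since each has 1 probe and all lie above both limits. Over 123 differences of single members, quantile scaling moved 12 and lowess 1 by more than 0.1, and 0 called ones changed sign. With quantile scaling 2 of 41 members in place of 4 were at least 2-fold lower in OP9-DL against OP9-GFP. Of all 15581 compared probes 414 were, in place of 425. A 1.5-fold threshold counted 29 members higher in OP9-GFP against OP9 (14% of probes), 1 higher and 10 lower in OP9-DL against OP9-GFP (7.77% and 8.47%), and 19 higher and 2 lower in OP9-DL against OP9 (13.3% and 15.7%). A 3-fold threshold counted 0 higher in the first (1.21%), 0 lower in the next (1.06%), and 1 higher and 0 lower in the last (1.39% and 2.83%). The other lists were rerun by settings chosen after seeing the data. In OP9-DL against OP9, quantile scaling counted 6 other replication genes higher in place of 3 and 0 nucleotide supply genes lower in place of 2, and gave the G1/S list a median of 0.44 in place of 0.32. Over all compared probes it counted 747 higher in place of 674 and 978 lower in place of 1078. For nucleotide supply genes lower in OP9-DL against OP9-GFP, 2 as reported, quantile scaling counted 1, the constant 1 and lowess 0. Of all compared probes, these settings counted 414, 366 and 415 lower, in place of 425. The 50th percentile limit counted 0 G1/S genes lower in OP9-DL against OP9 in place of 1, and no limit counted 1 mitosis gene lower in OP9-DL against OP9-GFP in place of 0. The median log2 difference of the mitosis genes, OP9-DL against OP9, turned from -0.03 to 0.062 (quantile), 0.11 (no limit) and 0.0402 (50th percentile), and the cause was not tested. With 1 array per line, their number limits the precision. No paired analysis was possible because each line has 1 array.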
